A study of Mus musculus with 8 samples.

Results

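The genes described here flank Pknox1, the gene for the transcription factor Prep1, on mouse chromosome 17. They were taken by position alone: every non-control probe of the array placed between 26740000 and 33500000 on chromosome 17 (mm9, the build of the files), which reaches 5 Mb below and 1.76 Mb above the start of the Pknox1 probe at 31744266. Pknox1 itself, Ndufv3, Bak1 and names that start with Rps, Rpl or Psm were left out, which removed 8 probes of 5 genes. The members are 201 of 41174 probes and 137 of 27398 gene names on the array.

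The muscle sampled was the tibialis anterior, which lifts the foot and is made mostly of fast fibres. The mice were C57BL/6 males, 8 weeks old. Prep1f/+ mice (n = 4) carry a floxed and a wild-type Prep1 allele by their label, and Prep1deltaSM mice (n = 4) lack Prep1 in skeletal muscle. The labels name neither the Cre driver nor the Prep1 alleles of the Prep1deltaSM mice, and they do not say whether the groups were littermates. Each mouse gave 1 single-colour Agilent array, and precision is limited by there being 4 arrays a group.

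Prep1 is a homeodomain protein of the TALE class that binds DNA together with Pbx proteins. Neighbouring DNA from the strain or embryonic stem cells in which a floxed allele was made can be inherited with that allele. The Prep1f/+ mice carry a floxed allele by their label. Glo1, one of the flanking genes, is known for copy number that differs between inbred mouse strains. Genomic copy number and strain haplotype were not measured here.

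The array probes are 60 bases long, and several flanking genes have more than 1. The sequences of the Btbd9 probes are shown because they gave different answers for 1 gene, and those of Glo1 and Dnahc8 because these are the next named genes with higher signal towards Pknox1. They are printed as the deposited files give them, 5′ to 3′, with no base marked: the whole probe where its mm9 position spans an intron, and the first 30 bases otherwise. The 3 Btbd9 probes lie on the minus strand at chr17:30354727-30354786, at chr17:30411856-30436484 and at chr17:30650529-30650588. The last of these is the 5′-most, and the files place it 379 bases upstream of the intron-spanning probe in the same transcript. The Glo1 probes are on the minus strand at chr17:30729951-30730010 and chr17:30731070-30731129, and the Dnahc8 probe is on the plus strand at chr17:31012058-31012117.
Btbd9 A_52_P488612: gcagatgtcatcactggggctttgagaagt
Btbd9 A_51_P491437: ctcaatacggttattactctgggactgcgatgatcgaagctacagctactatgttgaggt
Btbd9 A_52_P542860: acgaacttgattggatcagagtgatcgatc
Glo1 A_51_P480982: attctcagaggtgatttgaagactcaacaa
Glo1 A_52_P670745: actggattgagattctgaatcctaacaaaa
Dnahc8 A_51_P326631: tgtgtgacatcaagtaagttcatctctatc

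Pknox1 transcript was reduced in the muscle of Prep1deltaSM mice. Its log2 signal, here and below the log2 of the processed spot signal minus the 75th percentile of the array, was -0.09, -0.31, -0.21 and -0.51 in Prep1f/+ and -1.84, -2.08, -2.28 and -1.96 in Prep1deltaSM. The groups did not overlap. The difference was -1.76 ± 0.13 (SE), with an adjusted p of 0.0072 in a limma fit over all 16016 genes tested. That p was 0.062 with slide as a block, and leaving out 1 mouse raised it to 0.0656 (Prep1f/+ replicate 2), 0.0639 (Prep1f/+ replicate 3) or 0.0739 (Prep1deltaSM replicate 2). The arrays had 23787 to 27123 of 43379 non-control spots well above background, and every one of the 4 slides carried an array from both groups.

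Of the member genes, 93 were measured, through 138 of the 201 probes. A probe was tested where 4 or more of the 8 arrays read it well above background. For 88 of the 93 the brightest probe was above background on all 8 arrays, and the tested genes short of that were Tead3, 6030422H21Rik, Brpf3, Dnahc8 and AK048349. The other 44 genes were not tested, and 33 of them were above background on 0 arrays. They include Cbs, the cystathionine beta-synthase gene 5.7 kb from the Pknox1 probe, the cardiac factor Nkx2-5, the incretin receptor Glp1r and the trefoil peptides Tff2 and Tff3. A RefSeq gene was matched for 115 of the 137 genes, by the array-design name, the transcript accession or a synonym.

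No flanking gene passed an adjusted p of 0.05 in limma, and the lowest was 0.0897, for Btbd9. Over all genes 0.00624% passed, which was Pknox1 alone. With normexp background correction 2 flanking genes passed, Btbd9 and Glo1, among 26 over all genes, and with a trended robust fit 1, Btbd9, among 20. At an unadjusted p under 0.05, 8 flanking genes (8.6%) were higher in Prep1deltaSM, where 5.54% of all genes were, and 15 (16.1%) were lower, where 10.3% were. The 4 values of each group did not overlap in 13 genes (14%), 3 higher and 10 lower, against 10.5% of all genes. The median difference was -0.07 both in the flanking genes and over all 16016. The median absolute difference was 0.18 and 0.16. Leaving out Prep1f/+ replicate 1 or Prep1deltaSM replicate 4 raised the number that did not overlap to 22 and 25, while over all genes it rose from 1675 to 2399 and 2700. The number higher was 5 without Prep1deltaSM replicate 2 or 3, and over all genes it went from 887 to 641 and 785.

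**Figure D1:**
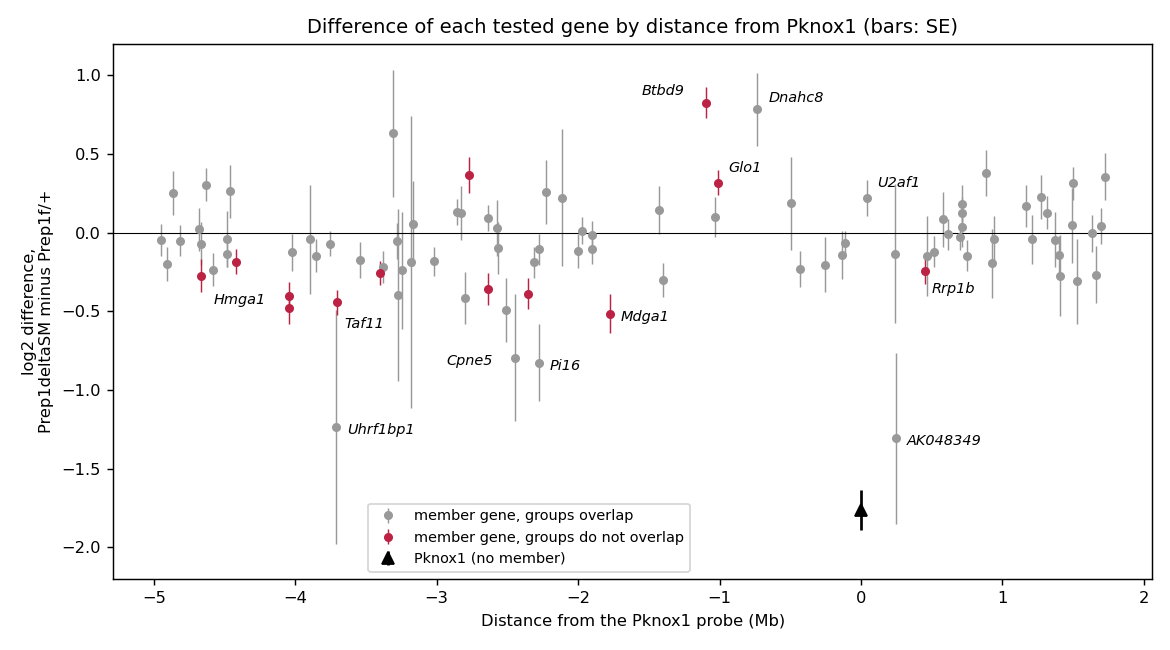
The log2 difference (Prep1deltaSM minus Prep1f/+, bars SE) of each of the 93 tested flanking genes is plotted against its distance from the Pknox1 probe in Mb, with genes whose groups of 4 did not overlap in red and Pknox1 as a black triangle. Btbd9 at 0.83 and Glo1 at 0.32 stand about 1 Mb below Pknox1. Of the 5 nearest tested genes on each side, Abcg1 and U2af1 lie above 0 and the others below it, with AK048349 lowest at -1.31.

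By distance, 63 of the 93 tested genes lay below Pknox1 and 30 above it. Of the 63 below, 5 were higher and 13 lower at an unadjusted p under 0.05 (28.6% together). In 12 of them (19%) the groups did not overlap. Of the 30 above, 3 were higher and 2 lower (16.7% together), and 1 (3.33%), Rrp1b, had groups that did not overlap. Over all genes the shares were 15.9% and 10.5%. These counts take the brightest probe of each gene. The median difference was -0.11 below and -0.02 above. In steps of 1 Mb from the far end, the number at that threshold was 5 of 16, 2 of 15, 6 of 17, 4 of 9 and 1 of 6 below Pknox1, and 3 of 16 and 2 of 14 above. No step holds 20 genes, and the difference between the sides was not tested. Chromosome 17 genes that are no members, 677 in all, had 17.7% at that threshold and a median of -0.09. At the edges of the window, Ergic1 (-0.04) and Zfp81 (0.36) lie just inside, and 1700049J03Rik (-0.51) and Zfp101 (-0.19) just outside.

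The lowest p of the flanking genes belonged to Btbd9, a BTB domain protein whose human gene is associated with restless legs syndrome. At its 5′-most probe, 1093.7 kb below Pknox1, the log2 signal was -0.26, 0.05, -0.04 and 0.04 in Prep1f/+ and 0.81, 0.65, 0.78 and 0.85 in Prep1deltaSM. All 4 Prep1deltaSM mice lay above all 4 Prep1f/+ mice, by 0.83 ± 0.10 (SE, 95% confidence interval 0.60 to 1.05) or 1.77-fold, at an adjusted p of 0.0897. Mice that shared a slide differed by 0.76, 0.69, 1.11 and 0.74. With normexp background correction it was 0.59 at an adjusted p of 0.0231, and with a trended robust fit the adjusted p was 0.0339; over the alternatives that kept this probe it ran from 0.0231 to 0.326.

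The other Btbd9 probes gave no such difference. The 3′-most, 1389.5 kb below Pknox1, read 0.05, -0.19, -0.17 and 0.04 in Prep1f/+ and -0.05, -0.18, -0.16 and 0.07 in Prep1deltaSM, a difference of -0.01 ± 0.10 (95% confidence interval -0.24 to 0.22). The intron-spanning probe, 1332.4 kb below, differed by 0.16 ± 0.14. The change between genotypes at the 3′-most probe minus that at the 5′-most was -0.84 ± 0.12 (adjusted p = 0.035 over 8472 probe pairs, limma on the difference within each array). For the intron-spanning probe of the same transcript minus the 5′-most it was -0.67 ± 0.18 at an adjusted p of 0.0632. In the authors' processed values the matched rows do not include the 5′-most probe, so the Btbd9 value there is that of the 3′-most probe, -0.01.

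**Figure D2:**
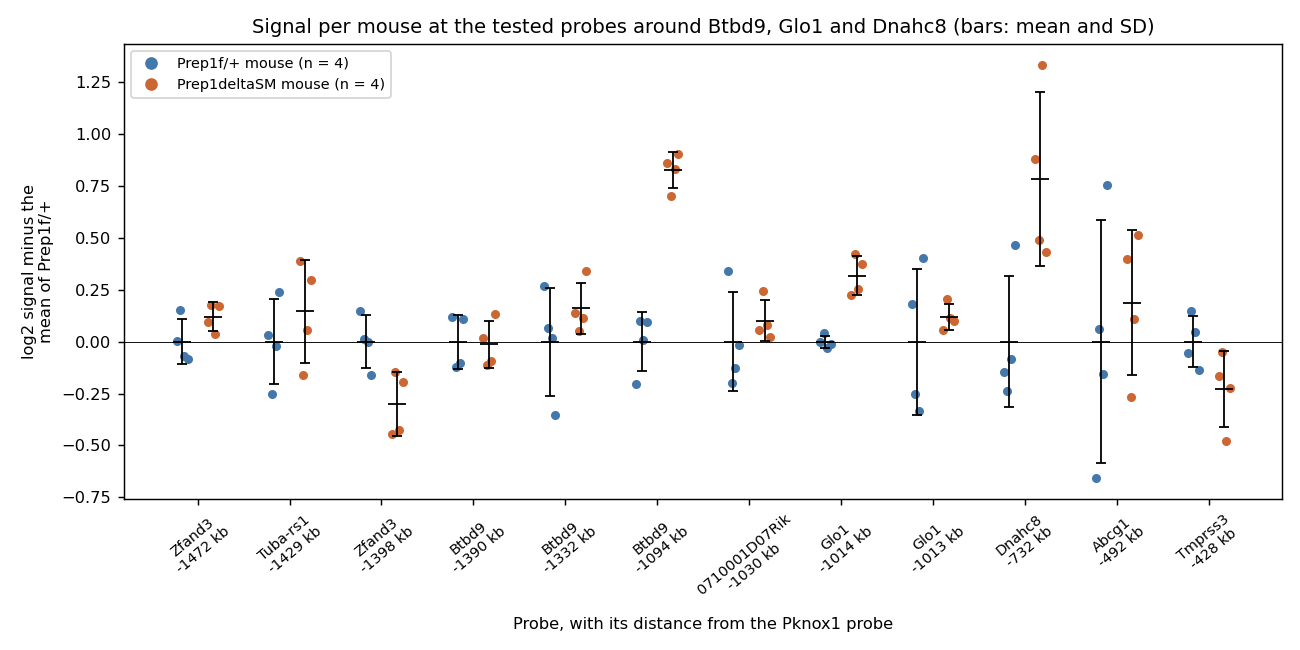
The log2 signal of each mouse, minus the Prep1f/+ mean of the probe, is plotted for every tested probe from Zfand3 to Tmprss3 in order of distance from Pknox1, with mean and SD. The Prep1deltaSM mice lie above all Prep1f/+ mice at 1 of 3 Btbd9 probes and 1 of 2 Glo1 probes, and near the Prep1f/+ mice at the gene between them.

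The next genes towards Pknox1 were uneven. 0710001D07Rik, 1030.3 kb below, differed by 0.10 ± 0.13. Glo1, which encodes glyoxalase 1, the enzyme that clears methylglyoxal with glutathione, read 5.47, 5.51, 5.44 and 5.46 in Prep1f/+ and 5.69, 5.89, 5.72 and 5.84 in Prep1deltaSM at its brighter probe. These groups did not overlap, and the difference was 0.32 ± 0.08 (1.25-fold, adjusted p = 0.166; 0.0242 with normexp, with a range of 0.0242 to 0.454). Its second probe, 1 kb away, read 4.00, 3.57, 3.49 and 4.23 against 3.88, 4.03, 3.93 and 3.92. There the groups overlapped and the difference was 0.12 ± 0.17. The second probe minus the brighter one was -0.20 ± 0.17 (adjusted p = 0.497 over all pairs), so a difference between the Glo1 probes was not detectable.

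Dnahc8 (RefSeq Dnah8), an axonemal dynein heavy chain of the sperm tail, gave a dim signal of -4.46, -4.55, -4.40 and -3.85 in Prep1f/+ and -3.43, -3.83, -2.98 and -3.88 in Prep1deltaSM. It was well above background on 1 Prep1f/+ array and on all 4 Prep1deltaSM arrays, so it passed the filter through the group where it was higher. The difference was 0.78 ± 0.23 (adjusted p = 0.202), and the groups overlapped at Prep1f/+ replicate 4. With normexp background correction the Dnahc8 difference was 0.11, and over all alternatives it ran from 0.11 to 1.11. The other Dnahc8 probes and Glp1r, which lies between Dnahc8 and Pknox1, were above background on 0 arrays.

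None of the 5 nearest tested genes below Pknox1 separated the groups. They are Abcg1, a cholesterol exporter (0.19 ± 0.30), Tmprss3, a serine protease (-0.23 ± 0.11), Slc37a1, a sugar phosphate exchanger (-0.20 ± 0.17), Pde9a, a cyclic GMP phosphodiesterase (-0.14 ± 0.15), and Wdr4, which takes part in tRNA methylation (-0.07 ± 0.08). Wdr4, 111.0 kb below Pknox1, read 1.03, 1.12, 0.98 and 1.17 in Prep1f/+ and 1.08, 0.92, 0.99 and 1.02 in Prep1deltaSM, with a 95% confidence interval of -0.25 to 0.12 for the difference. Abcg1 turned to -0.03 without Prep1f/+ replicate 1.

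Above Pknox1 the nearest tested gene was U2af1, the splicing factor subunit that recognises the end of an intron, 40.9 kb above Pknox1. Its brighter probe read 1.40, 1.46, 1.70 and 1.50 against 1.87, 1.86, 1.72 and 1.50, a difference of 0.22 ± 0.11 (adjusted p = 0.377). Its second probe differed by 0.35 ± 0.10, with groups that did not overlap. Beyond it came the kinase gene Sik1 (-0.13 ± 0.44), the transcript AK048349 (-1.31 ± 0.54), Rrp1b, a nucleolar protein of ribosomal RNA processing (-0.24 ± 0.08), and the pseudogene Pdxk-ps (-0.15 ± 0.25). The Rrp1b value is that of its brightest probe, and its other tested probes differed by 0.04 ± 0.12, -0.07 ± 0.08 and -0.26 ± 0.11. AK048349 read between -2.07 and -1.81 in Prep1f/+ but -3.57, -3.20, -1.57 and -4.64 in Prep1deltaSM, so 1 of the 4 mice was above the Prep1f/+ range. Sik1 turned to 0.16 without Prep1f/+ replicate 4 and 0.17 without Prep1deltaSM replicate 2.

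At an unadjusted p under 0.05, 15 flanking genes (16.1%, against 10.3% of all genes) had lower signal in Prep1deltaSM. Of these 15, 13 lay below Pknox1, where 63 of the 93 tested flanking genes lie. Taf11, a subunit of the general transcription factor TFIID, read 1.82, 1.68, 1.71 and 1.66 in Prep1f/+ and 1.21, 1.34, 1.35 and 1.20 in Prep1deltaSM. The groups did not overlap and the difference was -0.44 ± 0.08 (adjusted p = 0.121). Its second probe, which overlaps the first in sequence, also gave -0.44, with groups that did not overlap. Hmga1, an architectural chromatin protein, read 5.11, 5.17, 5.09 and 4.88 against 4.60, 4.68, 4.59 and 4.76, a difference of -0.40 ± 0.09 with groups that did not overlap (adjusted p = 0.146). AI413582, whose probe starts 575 bp from the end of the Hmga1 probe and is on the other strand, differed by -0.48 ± 0.10 with groups that did not overlap (adjusted p = 0.132).

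The groups did not overlap in 7 further genes of that set. They were Lemd2, a protein of the inner nuclear membrane (-0.18 ± 0.08, adjusted p = 0.314), Mdga1, a cell adhesion protein anchored in the membrane (-0.51 ± 0.12), Ppil1, a spliceosomal prolyl isomerase (-0.39 ± 0.10), Kctd20, a regulator of Akt signalling (-0.36 ± 0.10), Zfp523, a zinc finger factor (-0.26 ± 0.08), Rrp1b, and Cuta (-0.27 ± 0.10). Zfand3 (-0.30 ± 0.11) and the transcript TC1707343 (-0.42 ± 0.17) overlapped between groups. Adjusted p-values for these genes other than Lemd2 ran from 0.159 to 0.282.

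**Figure D3:**
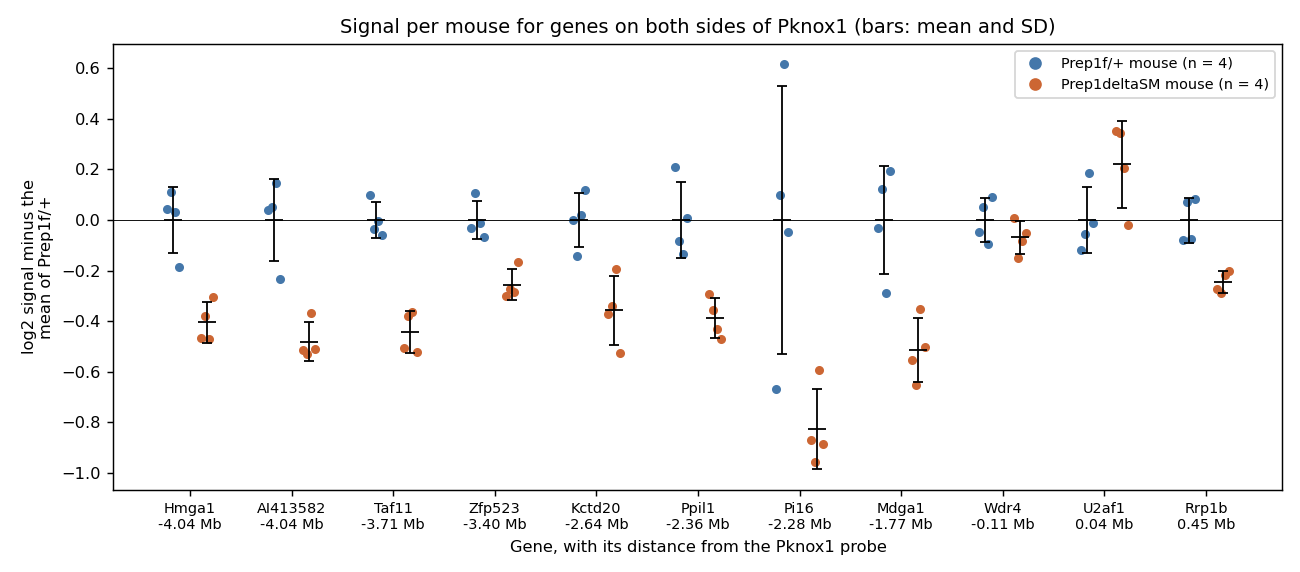
The log2 signal of each mouse, minus the Prep1f/+ mean of the gene, is plotted for 11 genes on both sides of Pknox1 in order of distance, with mean and SD. Hmga1, AI413582, Taf11, Zfp523, Kctd20, Ppil1, Mdga1 and Rrp1b show no overlap between groups, Wdr4 shows nearly equal groups, and U2af1 is the one that is higher.

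Pi16, a peptidase inhibitor that marks fibroblasts, read 2.0, 2.77, 3.28 and 2.62 in Prep1f/+ and 1.80, 1.71, 2.07 and 1.78 in Prep1deltaSM, a difference of -0.83 ± 0.24 (adjusted p = 0.201). Beside it, 7 of 9 fibroblast and matrix markers were lower in Prep1deltaSM with a median difference of -0.42, and their summed signal (in units of the 75th percentile) was 400 to 682 in Prep1f/+ and 305 to 704 in Prep1deltaSM. The fibroblast sum was highest in Prep1deltaSM replicate 3, where Pi16 stood at 2.07, the highest of its group but below 3 of the 4 Prep1f/+ mice. All 6 tendon markers, 8 of 8 tested leukocyte markers and 5 of 5 tested adipocyte markers were also lower, with medians of -0.57, -0.46 and -1.03. Of these, 1 tendon, 2 leukocyte and 0 adipocyte markers had an unadjusted p under 0.05 in limma, and none passed the adjusted threshold. Their summed signals overlapped between Prep1f/+ and Prep1deltaSM. They were 41 to 67 against 35 to 51 (tendon), 17 to 36 against 12 to 20 (leukocyte) and 134 to 170 against 101 to 167 (adipocyte). The 8 skeletal muscle markers had a median of 0.04. The part of any of these cell types in the Pi16 difference was not tested, and in whole muscle fewer cells of a type and less RNA per cell cannot be told apart.

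Besides Btbd9, Glo1 and Dnahc8, 5 flanking genes were higher at an unadjusted p under 0.05. Brpf3, a scaffold of histone acetyltransferase complexes, read -3.67, -3.69, -3.64 and -4.04 against -3.45, -3.31, -3.50 and -3.30, a difference of 0.37 ± 0.11 with groups that did not overlap (adjusted p = 0.208). Zfp563 (0.31 ± 0.10), Zbtb9 (0.31 ± 0.11), Zfp81 (0.36 ± 0.15) and Cyp4f39, a fatty acid hydroxylase of the skin barrier (0.38 ± 0.15), overlapped between groups, with adjusted p-values of 0.225 to 0.298. With normexp background correction the differences of the dim genes Brpf3, Zbtb9 and Zfp81 were 0.088, 0.092 and 0.13.

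Taken by function, no group of flanking genes had a member past the adjusted threshold. The counts that follow are at an unadjusted p under 0.05, where 5.54% of all genes were higher and 10.3% lower, and all genes had a median of -0.07. Of 13 tested transcription and chromatin genes, 2 were higher (Brpf3 and Zbtb9) and 3 lower (Taf11, Hmga1 and Zfp523), with a median of -0.07. Of 10 RNA processing genes, 0 were higher and 2 lower (Ppil1 and Rrp1b), also with a median of -0.07. Of 9 kinases and kinase regulators, only Kctd20 was lower and none higher, with a median of 0.09: Mapk14, the p38 alpha kinase, differed by 0.13 ± 0.08, Srpk1, a kinase of splicing factors, by -0.18 ± 0.09, and Ip6k3, an inositol phosphate kinase of muscle, by 0.26 ± 0.17.

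Of 11 tested zinc finger genes, 2 were higher (Zfp563 and Zfp81) and 1 lower (Zfp523), with a median of 0.00. Zfp523 lies 3401.7 kb below Pknox1, and the others lie between 1166.4 and 1726.7 kb above it. Of 3 tested genes of the Cyp4f cluster, Cyp4f39 was higher, and Cyp4f13 and Cyp4f16 differed by 0.13 ± 0.10 and -0.04 ± 0.15 (the latter between -0.14 and 0.11 over the alternatives). Of 10 genes of metabolism and transport, 1 was higher (Glo1) and 0 lower, and the median was -0.07. Of 4 tested secreted or cell surface genes, 2 were lower (Mdga1 and Pi16), and Notch3, a receptor of vascular smooth muscle, differed by -0.12 ± 0.10. Of 7 genes of cell cycle and stress, 0 were higher and 3 were lower: Zfand3, Cuta and Cdkn1a, the p21 inhibitor of cyclin-dependent kinases, at -0.49 ± 0.20. Fkbp5, of the same list, differed by 0.06 ± 0.27 at its brightest probe. At its other probes it was higher, by 0.59 ± 0.21 and 0.82 ± 0.28, and at the last the groups did not overlap. The gaps to the brightest probe had adjusted p-values of 0.177 and 0.184 in limma over all probe pairs.

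Probe by probe, 36 of the 138 tested probes (26.1%) had an unadjusted p under 0.05, 19 higher and 17 lower, where 17.8% of all 24488 probes did. Of the 36 genes with 2 or more tested probes, all probes of a gene had the same sign in 21 (58.3%), against 50.4% of 5851 genes on the whole array. Among the 23 genes with an unadjusted p under 0.05, 9 had further tested probes. All probes of the gene went the same way in 5: Lemd2, Taf11, Brpf3, Glo1 and Zfp81. In Btbd9, Kctd20 and Rrp1b the further probes had both signs, and in Zfand3 the further probe had the opposite sign.

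The difference between probes of a gene was tested directly on the 45 member pairs, each the brightest probe against another probe. In 6 pairs of 6 genes the change between genotypes differed at an adjusted p under 0.05 (13.3%), where 4.85% of all 8472 pairs did. At an unadjusted p under 0.05 there were 14 member pairs, against 25.6% of all pairs. The 6 genes were Btbd9, D17Wsu92e, Ggnbp1, Kctd20, Zfand3 and Mtch1, with adjusted p-values from 0.035 to 0.0492. All 6 calls were lost with slide as a block or without any 1 of 7 arrays, settings in which at most 1 of the 8472 pairs was called, while without Prep1deltaSM replicate 4 the pairs of Btbd9, D17Wsu92e, Ggnbp1 and Kctd20 passed and those of Zfand3 and Mtch1 did not.

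The sequences below are those of the pairs other than Btbd9, shown because the probes of each pair are assigned to 1 gene and went opposite ways. In each gene the brighter probe comes first. D17Wsu92e probes are on the minus strand at chr17:27888506-27888565 and chr17:27930857-27930916. Ggnbp1 probes are on the plus strand at chr17:27159225-27159284 and, spanning an intron, chr17:27167735-27169556. Kctd20 probes are on the plus strand at chr17:29106390-29106449 and chr17:29098563-29098622. Zfand3 probes are on the plus strand at chr17:30346773-30346832 and, spanning an intron, chr17:30272440-30290296. Mtch1 probes are on the minus strand at chr17:29469055-29469114 and, spanning an intron, chr17:29477796-29479780.
D17Wsu92e A_51_P397920: ttgccagggagacaactgaatttggggcat
D17Wsu92e A_52_P52263: gagaaggggagtcaataccccctgataccc
Ggnbp1 A_51_P158638: ggatgcggtatcaggtggcctcttagaagc
Ggnbp1 A_51_P519048: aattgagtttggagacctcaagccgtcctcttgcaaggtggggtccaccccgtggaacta
Kctd20 A_52_P45926: cttacaccatacttacttctgaagttgcac
Kctd20 A_52_P447108: ttgtggatggcactcgttttgtggtaaatc
Zfand3 A_52_P261249: tgttacgtgtaagggaagctgaagttcttg
Zfand3 A_51_P225873: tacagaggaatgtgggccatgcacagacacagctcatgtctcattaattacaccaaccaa
Mtch1 A_52_P126162: gaatacgcacaggttacataggccgacatc
Mtch1 A_51_P458242: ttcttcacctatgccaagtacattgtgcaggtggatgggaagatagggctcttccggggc

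In Ggnbp1, named for binding gametogenetin, the brighter probe read 3.50, 3.76, 3.53 and 3.55 in Prep1f/+ and 3.20, 3.28, 3.34 and 3.57 in Prep1deltaSM, a difference of -0.23 ± 0.11. The intron-spanning probe read -0.69, -0.58, -0.73 and -0.67 against -0.24, -0.03, -0.15 and -0.32, a difference of 0.48 ± 0.09, and there the groups did not overlap. The gap between these differences was 0.72 ± 0.13 (adjusted p = 0.035), and by slide it was 0.89, 0.95, 0.30 and 0.73.

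In Kctd20 the brighter probe read 2.52, 2.37, 2.53 and 2.63 against 2.14, 2.17, 2.32 and 1.99, and the dimmer probe -2.19, -2.31, -2.37 and -2.21 against -2.05, -2.13, -2.10 and -2.04. Prep1deltaSM was below Prep1f/+ in all mice at the former and above it in all mice at the latter. The gap was 0.55 ± 0.11 (adjusted p = 0.036). A further Kctd20 probe between them differed by -0.19 ± 0.12.

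D17Wsu92e (RefSeq Ilrun) differed by -0.15 ± 0.11 at its brighter probe and 0.34 ± 0.10 at its dimmer one, a gap of 0.49 ± 0.09. Mtch1, a protein of the mitochondrial outer membrane, differed by -0.11 ± 0.10 and 0.35 ± 0.10, a gap of 0.46 ± 0.11. Zfand3 differed by -0.30 ± 0.11 and 0.12 ± 0.09, a gap of 0.42 ± 0.10. In all 6 called pairs the within-array gaps of the groups did not overlap. The 6 were picked by p-values on these same gaps, so this is no separate evidence. Called or not, 9 of 45 member pairs and 1437 of 8472 pairs of the whole array had no overlap. Averaged over its probes, Mtch1 differed by 0.12 in place of -0.11.

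**Figure D4:**
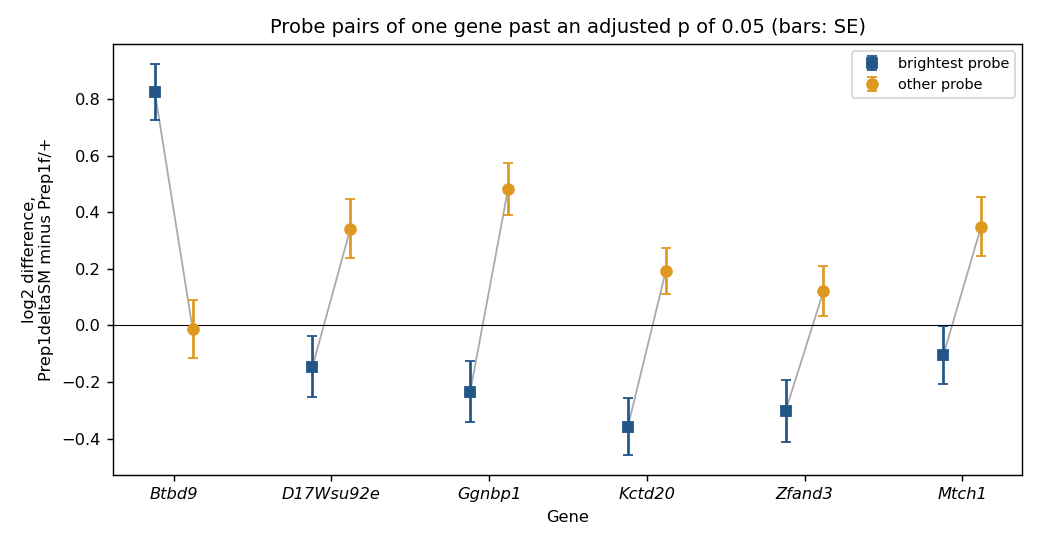
The log2 difference (Prep1deltaSM minus Prep1f/+, bars SE) is plotted for the brightest probe (squares) and the other probe (circles) of the 6 member genes whose pair passed an adjusted p of 0.05. In Btbd9 the brightest probe is the higher one, and in the other 5 genes the dimmer probe is.

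Brightness moved with these differences. In 5 of the 6 called member pairs the dimmer probe was the higher one in Prep1deltaSM, and so it was in 385 of the 411 called pairs of the whole array (93.7%), leaving 26 the other way, of which Btbd9 was 1. The median gap was 0.13 in member pairs and 0.12 in all pairs. With all tested probes split into 4 equal classes of brightness, the median difference of member probes was 0.05 in the dimmest, 0.02 and -0.01 in the middle classes and -0.14 in the brightest, beside 0.03, 0.02, -0.02 and -0.07 for all probes. In the brightest class, of 29 member probes, 1 was higher and 8 lower at an unadjusted p under 0.05, where 4.44% of all probes of that class were higher and 10.3% lower. In the dimmest class, of 26, 5 were higher and 1 lower, where 10.7% and 5.59% of all were. The part of brightness in the probe differences was not tested. The median GC content was 47.5% in the brighter and 49.2% in the dimmer probes of the called member pairs, and 41.7% in all tested probes.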

How the data were processed

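Per the file headers, the deposited spot intensity is the background-subtracted, detrended signal of Feature Extraction 10.5.1.1 (protocol GE1_107_Sep09, array design 014868). Version 9.1 stands in the submitters' processing notes, and the versions were not reconciled. A processed value table of the authors holds intensity values for 32812 rows; set against the scanner values it was linear, uncentred and quantile-normalized, with medians of 12.69 to 13.29 per array, and the 26233 rows within 0.1 log2 of those values were used for an alternative.

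The log2 intensity of each spot was taken minus the 75th percentile of its array (139 to 197), non-uniform spots (0 to 11 per array) were left out, and spots of a probe were averaged. A probe was kept if 4 or more of 8 arrays read it well above background (24488 of 41174), and the brightest probe stood for a gene (16016 genes). The genotypes were compared in limma 3.58.1 (R 4.3.3; lmFit, then eBayes). P-values were adjusted by Benjamini-Hochberg over the whole table of genes, probes or pairs. The fit was tested on simulated data. A probe pair was the other probe minus the brightest within each array. The labels name mice but not litters, so p-values measure the spread between these mice. Genes and lists were chosen with earlier results of these data known: members at an unadjusted p under 0.05 (12 at most per direction), the 5 nearest on each side, called pairs, and examples of the role lists. Whether probes lie in an exon's coding part or UTR was not settled, as no mm9 annotation was used.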

Additional observations from a re-analysis of the deposited data

Results flagged for a closer look

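In 94 groups of 4 mice among the genes named above and Pknox1, 1 mouse stood far from the other 3 in 6, by Dixon's ratio of its gap to the whole range, where chance gives about 5. Brpf3 was lowest in Prep1f/+ replicate 4 (-4.04 against -3.69 for the next, ratio 0.886), and Zbtb9 was lowest in Prep1deltaSM replicate 4 (-3.13 against -2.81, ratio 0.861). AI413582 was highest in Prep1deltaSM replicate 3 (-1.37 against -1.51, ratio 0.865). Sik1 was highest in Prep1f/+ replicate 4 (0.06 against -1.04, ratio 0.866), and Srpk1 in Prep1f/+ replicate 2 (-0.50 against -0.71, ratio 0.879). Notch3 was lowest in Prep1deltaSM replicate 2 (2.28 against 2.58, ratio 0.883).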

How the results depend on the processing

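No paired analysis was possible because the labels number the mice without sharing numbers between groups; this concerns pairing by mouse, and slide, which held 1 array of each group, was fitted as a block. The 0 members past an adjusted p of 0.05 became 2 with normexp (Btbd9 and Glo1; 26 over all genes) and 1 with a trended robust fit (Btbd9; 20 over all genes), where the main setting gave 1. The 8 genes higher at an unadjusted p under 0.05 (887 overall) became 3 with the authors' values (69 members matched, 854 overall) and 5 with a trended robust fit (825 overall). When each array was left out they numbered 5 to 10 (641 to 934 overall). Of the 138 probes taken singly, 19 were higher (2365 of 24488 probes overall). The 13 genes whose groups did not overlap (1675 overall) became 32 without Prep1f/+ replicates 1 and 4 (5031 of 16016 genes overall). With each array left out they numbered 13 to 25 (2014 to 2877 overall). Of the 138 probes taken singly, 26 did not overlap (2885 of 24488 probes overall). The 6 called pairs (411 overall) became 3 with quantile normalization (219 overall) and 3 without Prep1f/+ replicates 1 and 4 (251 overall). They became 0 with no filter, with slide as a block and with the authors' values (11 pairs matched), where 0 were called overall. When each array was left out they numbered 0 to 4 (0 to 362 overall). The cause was not tested. The Pknox1 difference lost its call with slide as a block (-1.76) and without Prep1f/+ replicates 1 and 4 (-1.78), and ran from -1.84 to -1.68 with each array left out. Leaving out Prep1deltaSM replicates 2 and 4 was chosen after seeing the data because these mice were low in adipocyte, tendon and fibroblast markers. It gave 5 genes higher (612 overall), 33 that did not overlap (4339 overall), 0 pairs and -1.78 for Pknox1 without a call. Differences that turned were Sik1 (0.17), Pdxk-ps (0.22) and Cyp4f13 (-0.0063) without Prep1f/+ replicates 1 and 4, and Mtch1 (0.12) with probes averaged. Pde9a (0.028) and Cyp4f16 (0.11) turned without Prep1deltaSM replicates 2 and 4. With 1 array left out, Abcg1 (range -0.031 to 0.44), Sik1 (-0.51 to 0.17) and Cyp4f16 (-0.14 to 0.065) turned. Btbd9 was -0.011 with the authors' values, where its 3′-most probe stood for the gene. That probe differed by -0.01 in the main setting too. The medians and the number of lower genes (10 to 17) kept to within the limits set. Signal near background limits Dnahc8, Brpf3 and Tead3.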

Other observations

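Some of the largest differences among the flanking genes came with the largest scatter. At its brighter probe Uhrf1bp1 read 0.25, -2.77, -3.01 and -0.03 in Prep1f/+ and -2.50, -2.88, -2.39 and -2.72 in Prep1deltaSM. There Prep1f/+ replicates 1 and 4 stood far above the other 6 mice, and the difference was -1.23 ± 0.74. The second probe, 0.7 kb away, read -1.72, -2.32, -2.85 and -2.25 against -2.19, -2.52, -2.57 and -2.27, a difference of -0.10 ± 0.22. At that probe Prep1f/+ replicate 4 was within the Prep1deltaSM range. Uhrf1bp1 was chosen after its values were seen. Cpne5, a copine that binds membranes in a calcium-dependent way, read -0.18, -0.96, -1.14 and 0.93 in Prep1f/+ and between -1.26 and -0.95 in Prep1deltaSM, a difference of -0.79 ± 0.41.

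Zfp81, at the far end of the zinc finger cluster, was higher at both of its probes, by 0.36 ± 0.15 and 0.63 ± 0.19, and at the second the groups did not overlap. Lemd2, chosen here after its values were seen, was lower at both probes, by -0.18 ± 0.08 and -0.39 ± 0.08, without overlap at either.

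The letters TGATTGAC, part of a sequence bound by Prep1 with Pbx, were searched on both strands in the promoter window around each gene start in the RefSeq table (GRCm38.p6). They were in 2 of 99 promoters of the tested flanking genes (2.02%), those of Mtch1 and Wdr4, and in 0.77% of all 32851. The shorter TGACAG, which the octamer does not contain, was in 19.2% of both.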
